A study of Homo sapiens with 6 samples.

Results

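LUCAT1 is a long noncoding RNA (lncRNA) gene on the minus strand of human chromosome 5, from 91054834 to 91314547 on GRCh38. Its members here were all transcript rows that GENCODE release 29 assigns to the gene ENSG00000248323.6, and they were 55 of 251062 rows in the deposited table. The gene was selected on its higher expected counts in hypoxia than in normoxia in these same libraries. Its own changes are therefore given as descriptions, with no test.

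The libraries were made from wild-type cells labelled Huh7, a line from a human hepatocellular carcinoma. Most of the hepatocyte markers checked below had few or no counts, so the label is given as it stands. Of the 6 libraries, 3 came from cells held at 1% oxygen for 24 h (hypoxia, columns C4 to C6) and 3 from cells held at 21% oxygen for 24 h (normoxia, columns C1 to C3). The labels name no other treatment. Nothing in them says how the cultures of a group were kept apart, so a p-value speaks to the variation among these libraries, which may be technical. The RNA was total RNA depleted of ribosomal RNA, and the title of the study names hypoxia-induced lncRNAs and ferroptosis in liver cancer.

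LUCAT1 was described in airway cells, under the name SCAL1, as a transcript induced by cigarette smoke through NRF2. NRF2, encoded by NFE2L2, is the transcription factor that switches on antioxidant and detoxification genes, and the KEAP1 and CUL3 ubiquitin ligase holds it at a low level until oxidative stress releases it. In human myeloid cells LUCAT1 is induced by interferon and limits the output of interferon-stimulated genes. An lncRNA makes no protein, so its isoforms differ in which RNA sequence they carry, and intron-retaining forms are longer than their spliced counterparts.

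Isoforms that took many reads part ways at a few splice sites, which the following 40-base stretches of the GENCODE release 29 transcripts show. Each runs 5′ to 3′ on the minus strand, with the upstream exon in lower case and the sequence joined to it in capitals. The first 2 are shown because the same exon end, at position 91314080, is joined to the next exon at 91313777 in LUCAT1-227 and to a far exon at 91310333 in LUCAT1-209.
LUCAT1-227, exon 1 to exon 2: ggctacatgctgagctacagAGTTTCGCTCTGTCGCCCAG
LUCAT1-209, exon 1 to exon 2: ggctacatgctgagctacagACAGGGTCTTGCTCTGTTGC
LUCAT1-225 leaves its first exon 12 bases earlier, at 91314092, and joins a still more distant exon at 91308388.
LUCAT1-225, exon 1 to exon 2: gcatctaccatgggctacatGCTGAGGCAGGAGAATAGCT
At position 91313078 the transcripts either splice to 91312495 or to 91312413, or read on into the intron, whose first letters in LUCAT1-203 are the GT of a splice donor.
LUCAT1-227, exon 3 to exon 4: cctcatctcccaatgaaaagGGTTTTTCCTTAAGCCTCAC
LUCAT1-210, exon 3 to exon 4: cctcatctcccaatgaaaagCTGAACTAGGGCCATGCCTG
LUCAT1-203, exon 3 read through: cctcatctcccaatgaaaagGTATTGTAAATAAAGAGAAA
The last of these junctions joins position 91312295 to 91311032, across an intron of 1262 bases that LUCAT1-203, LUCAT1-211 and LUCAT1-235 retain.
LUCAT1-227, exon 4 to exon 5: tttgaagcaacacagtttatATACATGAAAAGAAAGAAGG

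The 55 transcripts have 2 to 10 exons, 374 to 3072 bases, 64 distinct splice junctions and 29 distinct annotated start positions. The most common start, 91314402, is shared by 16 of them. The table's own transcript length equalled that of release 29 for 50 of the 55 and differed for the other 5, among them LUCAT1-203 with 3072 bases in the table and 3066 in the release. Reads of isoforms that share exons were divided among them by RSEM, the counting program the submitters name, so a row's value is an estimate. Of the 55 transcripts, 18 hold no stretch of 31 bases that is absent from every other LUCAT1 transcript. These include LUCAT1-203, LUCAT1-235, LUCAT1-227 and LUCAT1-211. LUCAT1-209, by contrast, has 69.6% of its 31-base stretches to itself, LUCAT1-207 has 41.3% and LUCAT1-236 has 37.3%.

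Summed over the 55 rows, LUCAT1 held 19516.7, 18274.7 and 18074.1 expected counts in hypoxia C4, C5 and C6, against 2228.59, 2324.52 and 2285.63 in normoxia C1, C2 and C3. Per length, as FPKM summed over the rows (fragments scaled to transcript length and library total), these were 341.8, 318.1 and 325.4 in hypoxia and 38.9, 39.5 and 37.3 in normoxia. Every hypoxia library lay above every normoxia library. By mean FPKM LUCAT1 stood at rank 6 of 15976 lncRNA genes in hypoxia and at rank 21 in normoxia, and among all 58478 genes it stood at rank 202 in hypoxia and 2010 in normoxia. The log2 change was 3.23 ± 0.04 (SE), against a median of 0.43 over 3032 tested lncRNA genes, and it was the 182nd largest of them. In bulk RNA, fewer cells that express a transcript and less of it per cell cannot be told apart.

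Most of the annotated isoforms carried few reads. Ranked within each group, the 5 rows with the most counts held 62.2% of LUCAT1 counts in hypoxia and 60.2% in normoxia, and the 10 with the most held 85.5% and 82.3%. At the other end, 3 rows had 0 counts in all libraries, and 22 of the 55 had a mean of 10 or more counts in both groups. The low-count filter of the transcript fit let 28 of the 55 through. The 27 rows below it were together at a mean of 180.8 counts in hypoxia and 26.5 in normoxia. As a fraction of the library total, 36 rows were higher in all hypoxia libraries than in all normoxia libraries, and 0 were lower in all of them. Among all transcript rows with any count, 14.1% were higher in that way.

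LUCAT1-209, the 917-base form made of the first exon and a single far exon, was the most abundant isoform per length. It stood at 73.5, 65.9 and 66.5 FPKM in hypoxia and at 8.03, 9.12 and 8.15 FPKM in normoxia, rank 1 of the 55 rows in both groups. Its share of LUCAT1 counts was 13.2% ± 0.502 in hypoxia and 13.6% ± 0.921 in normoxia (SD, n = 3 each). Its log2 change of 3.14 ± 0.09 (SE) lay close to that of the gene.

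LUCAT1-203, which begins at the most common start and retains both of the introns described above, took the most counts. It held 18.0%, 20.2% and 23.1% of LUCAT1 counts in hypoxia and 11.0%, 17.4% and 30.3% in normoxia. The normoxia libraries spread so widely that they enclose the hypoxia ones. LUCAT1-235, which starts at 91313675 and retains the second intron, held 13.1%, 14.3% and 11.5% in hypoxia and 15.6%, 11.1% and 6.42% in normoxia. Its order over the normoxia libraries is the reverse of that of LUCAT1-203, and neither transcript has a 31-base stretch of its own.

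LUCAT1-245 begins at position 91312375, downstream of the forms above, and joins 3 exons. It held 11.1%, 9.25% and 7.85% of LUCAT1 counts in hypoxia and 10.6%, 10.7% and 9.40% in normoxia, which overlap. Per length it ranked 2 in both groups, with 41.7 ± 8.04 FPKM in hypoxia and 5.37 ± 0.32 FPKM in normoxia (SD, n = 3).

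**Figure D1:**
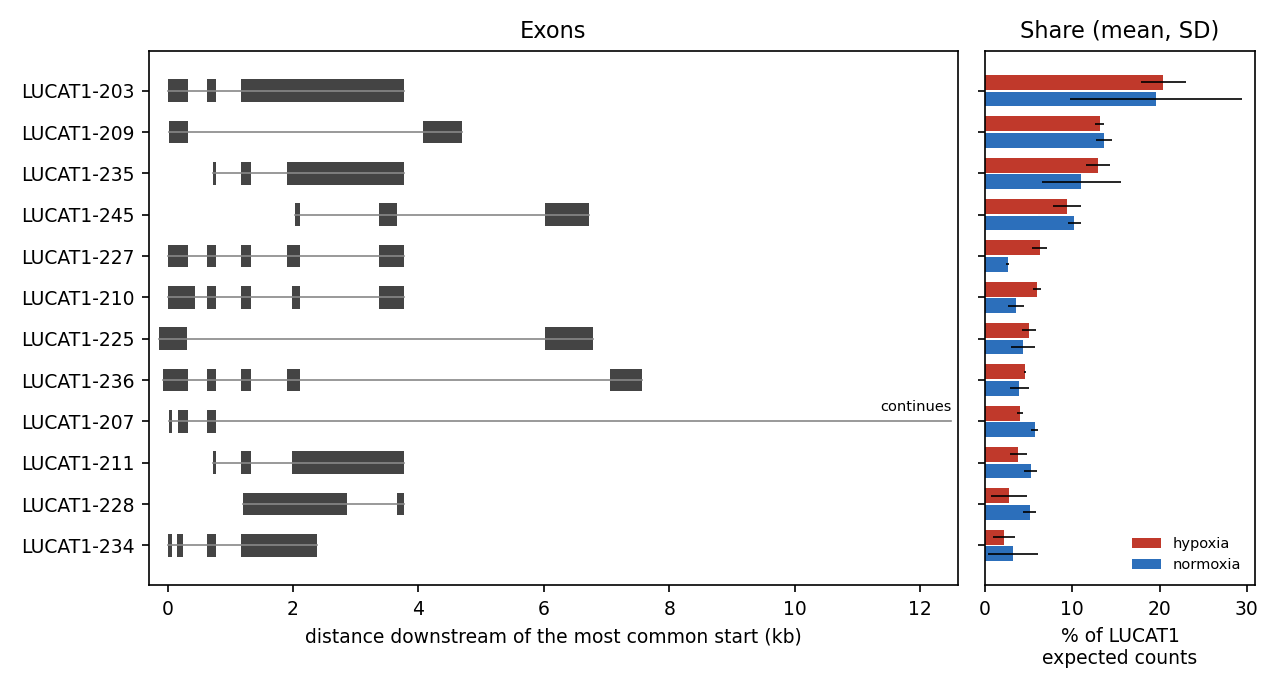
Exons of the 12 LUCAT1 transcripts with the most counts, drawn to scale by distance from the most common start (kb), beside the share of LUCAT1 expected counts each held (%, bars: mean, lines: SD, n = 3; hypoxia above normoxia). LUCAT1-203 held the largest share in both groups, and LUCAT1-227 and LUCAT1-210 held larger shares in hypoxia than in normoxia.

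Among the 12 rows with the most counts, the largest log2 changes belonged to 2 forms that splice out both introns. LUCAT1-227 has the same start and end as LUCAT1-203 but leaves 5 exons and 1222 bases. It held 5.38%, 7.03% and 6.32% of LUCAT1 counts in hypoxia, against 2.73%, 2.65% and 2.37% in normoxia, so the lowest hypoxia library lay above the highest normoxia library. Its log2 change was 4.46 ± 0.13 (SE), and its rank by FPKM was 5 in hypoxia and 11 in normoxia. LUCAT1-210 differs from LUCAT1-227 by a longer first exon and a later start of exon 4. It held 6.27%, 5.47% and 6.17% in hypoxia and 3.97%, 4.19% and 2.53% in normoxia, again without overlap, with a log2 change of 3.94 ± 0.21 (SE).

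Some forms moved the other way within the gene, with a smaller change than the sum. LUCAT1-207 ends in an exon about 30 kb away, at position 91283911, and its share was 3.70% to 4.30% in the hypoxia libraries against 5.65%, 5.26% and 6.07% in normoxia. The groups did not overlap, and its log2 change was 2.69 ± 0.12 (SE). LUCAT1-211 held 3.80% ± 0.979 in hypoxia and 5.23% ± 0.749 in normoxia (SD, n = 3), with overlapping libraries. LUCAT1-228 and LUCAT1-234 also varied widely between libraries of the same group. LUCAT1-228 ranged over 5.05%, 1.02% and 2.25% in hypoxia and 5.91%, 4.58% and 4.78% in normoxia, and LUCAT1-234 held 150.6, 587.1 and 465.1 counts in hypoxia and 121.2, 99.5 and 0 in normoxia.

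**Figure D2:**
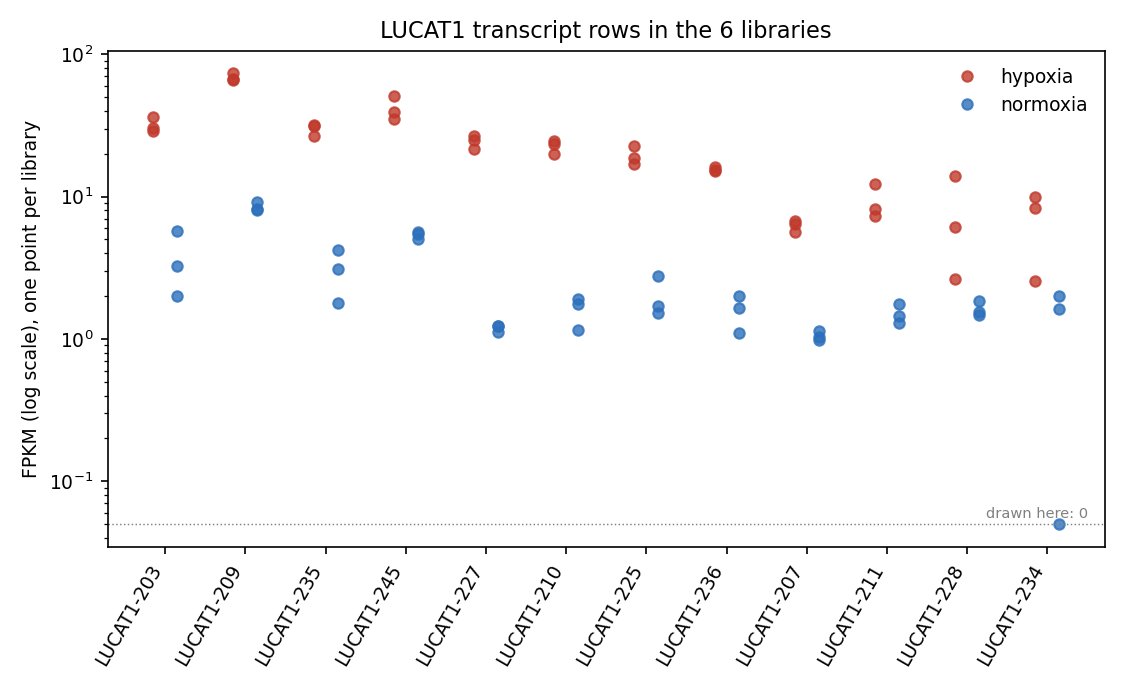
FPKM (log scale) of the same 12 LUCAT1 transcripts in each library, hypoxia left of normoxia within each transcript. Each transcript's hypoxia points lie above its normoxia points, with LUCAT1-209 highest in both groups and LUCAT1-234 at 0 in a normoxia library.

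Over the 28 rows past the filter, the median log2 change was 3.06. The gene was selected on its rise between these groups, so this median describes that selection. The smallest change was that of LUCAT1-242, a 7-exon form that runs to position 91151238, with 19.9, 18.9 and 7.5 counts in hypoxia and 7.3, 14.9 and 13.1 in normoxia and a log2 change of 0.57 ± 0.55 (SE). The largest estimate was 4.56 ± 1.25 (SE) for LUCAT1-251, on a mean of 51.2 counts in hypoxia and 2.17 in normoxia. Its normoxia counts were 6.51, 0 and 0, so it passed the filter through its hypoxia counts. Other rows with few normoxia counts passed in the same way, among them LUCAT1-226 and LUCAT1-239. LUCAT1-227, at 4.46, was just under LUCAT1-251 with many more counts.

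**Figure D3:**
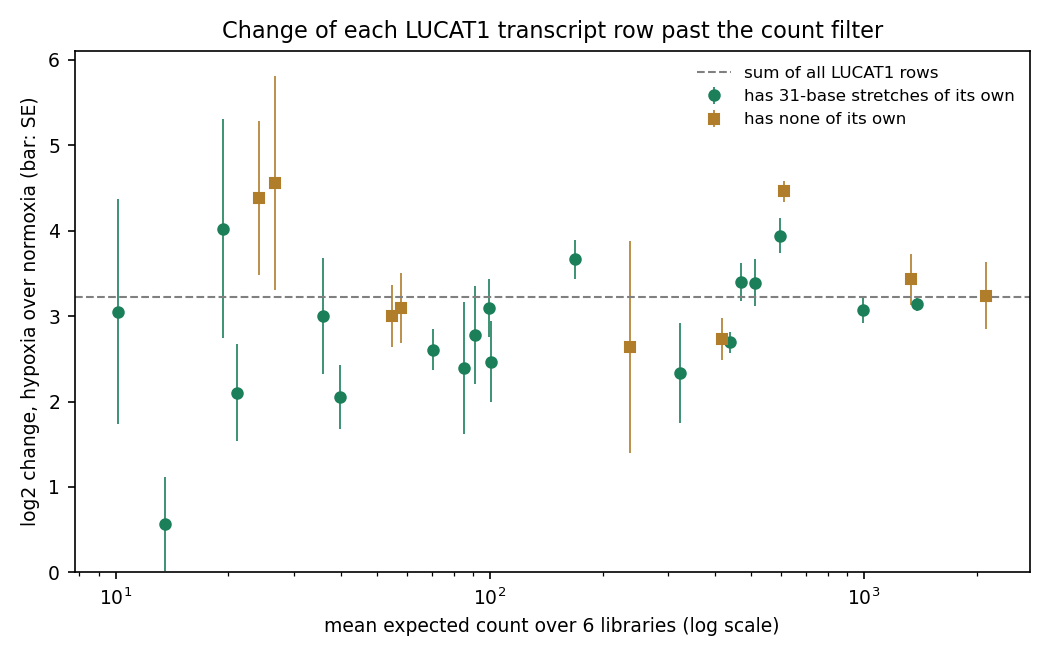
Log2 change, hypoxia over normoxia, of the 28 LUCAT1 rows past the count filter against their mean expected count over the 6 libraries (log scale), with bars for the SE. Circles have 31-base stretches found in no other LUCAT1 transcript, squares have none, and the dashed line is the log2 change of 3.23 of the summed gene; the abundant rows sit near the line, with LUCAT1-227 and LUCAT1-210 above it.

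Taken over all 55 rows, no hypoxia library differed from a normoxia library by more than the most unlike pair of normoxia libraries. The share of LUCAT1 counts that would have to be moved between rows to turn the mean hypoxia mixture into the mean normoxia mixture was 11.3%. The same measure was 8.79% to 12.6% between pairs of hypoxia libraries and 13.3% to 25.9% between pairs of normoxia libraries. Between a hypoxia and a normoxia library it was 10.4% to 23.4%, which reaches above the range of the hypoxia pairs. Normoxia libraries held fewer LUCAT1 counts, a mean of 2280 against 18622 in hypoxia. The part of this in the wide normoxia range was not tested.

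Grouping by annotated start, with starts within 100 bases joined, put 44 transcripts in a first group at 91314252 to 91314547. This group held 65.4%, 71.9% and 75.1% of LUCAT1 counts in hypoxia and 63.2%, 66.9% and 74.0% in normoxia, and the ranges overlap. The second group, 4 transcripts from 91313675, held 16.8% ± 2.03 in hypoxia and 16.3% ± 4.49 in normoxia (SD, n = 3). LUCAT1-245, alone at 91312375, was the next in size. The most distant start, 91203446, belongs to LUCAT1-244, which held 3, 5 and 1 counts in hypoxia and 0, 3 and 5 in normoxia. Transcripts that begin between 91311880 and 91314547 held 99.9% of counts in hypoxia and 99.7% in normoxia.

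The annotated 3′ ends fell into 25 groups by the same rule. The largest, 15 transcripts that end between 91310614 and 91310641 and include LUCAT1-203 and LUCAT1-227, held 56.0%, 55.6% and 55.5% of counts in hypoxia against 48.7%, 49.7% and 54.3% in normoxia. These did not overlap, although normoxia C3 lay close to hypoxia. The end of LUCAT1-209 alone held 13.2% in hypoxia and 13.6% in normoxia, and the shared end of LUCAT1-225 and LUCAT1-245 held 14.4% ± 0.852 in hypoxia and 14.5% ± 0.698 in normoxia (SD, n = 3). The far ends were weak: the 2 transcripts that end at 91151211 to 91151238 held 0.0999% in hypoxia and 0.585% in normoxia.

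Several junctions span an intron that some other LUCAT1 transcript retains, and the estimated share of the retaining transcripts did not move in a single direction over them. For the intron of 582 bases between 91313078 and 91312495, the retaining transcripts made up 39.0%, 35.7% and 41.8% of the sum of retaining and splicing transcripts per length in hypoxia, against 44.4%, 49.5% and 62.2% in normoxia. For the intron of 1262 bases between 91312295 and 91311032 this was 42.1%, 44.0% and 44.6% in hypoxia, against 45.7%, 46.7% and 52.1% in normoxia. At both of these, whose junctions held the most counts among these, every hypoxia library was below every normoxia library. The same held for the intron of 664 bases between 91313078 and 91312413, which shares its retaining transcripts with the first. There the share was 53.4%, 58.2% and 59.5% in hypoxia, against 63.2%, 60.4% and 68.6% in normoxia. These introns are not independent, since LUCAT1-203 retains all of them. LUCAT1-227 splices those of 582 and 1262 bases, and LUCAT1-210 those of 1262 and 664 bases. Their shares thus partly restate the shares of LUCAT1-227 and LUCAT1-210 given above. At further introns, not printed here, the groups overlapped or hypoxia lay below. Only at 2 shorter introns near the 5′ end was every hypoxia library above every normoxia library. Between 91314332 and 91314244 the share was 92.9%, 94.0% and 93.7% in hypoxia, against 90.0%, 91.9% and 89.7% in normoxia. Between 91314165 and 91314033 it was 94.2%, 93.3% and 93.3% in hypoxia, against 86.5%, 83.1% and 67.3% in normoxia. This last share compares only 1 retaining row, LUCAT1-210, with 1 splicing row, LUCAT1-223, so it partly restates the share of LUCAT1-210. LUCAT1-223 held 11.4, 16.3 and 23.2 counts in normoxia C1, C2 and C3. These shares were summed from whole-transcript estimates and not from junction reads. With so few libraries per group, complete separation of the groups at an intron, in either direction, can arise by chance. How many of these introns would separate by chance was not tested. The same limit holds for the shares of single isoforms and end groups described above as not overlapping.

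The junction from 91313638 to 91313229 was carried by 29 of the 55 transcripts, and these held 60.8% ± 3.02 of counts in hypoxia and 54.9% ± 0.43 in normoxia (SD, n = 3). The junction from 91314080 to 91313777, printed above for LUCAT1-227, was also carried by 29 transcripts, with 42.2% ± 3.44 in hypoxia and 40.3% ± 7.26 in normoxia. The junction at the end of the longer first exon of LUCAT1-210, position 91313962, was carried by 3 transcripts with 6.35% ± 0.459 in hypoxia and 4.31% ± 0.688 in normoxia.

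The dominant start group lies at the promoter given for LUCAT1 by RefSeq (GRCh38.p14, minus strand, chr5:91314353-91314652), which is shown because it precedes the isoforms that held most counts. It runs from 250 bases before the RefSeq start to 50 bases after it. The capitals mark the only match to TGACNNNGC, the core of the antioxidant response element through which NRF2 acts, found on the opposite strand as TGACTCAGC.
LUCAT1 promoter: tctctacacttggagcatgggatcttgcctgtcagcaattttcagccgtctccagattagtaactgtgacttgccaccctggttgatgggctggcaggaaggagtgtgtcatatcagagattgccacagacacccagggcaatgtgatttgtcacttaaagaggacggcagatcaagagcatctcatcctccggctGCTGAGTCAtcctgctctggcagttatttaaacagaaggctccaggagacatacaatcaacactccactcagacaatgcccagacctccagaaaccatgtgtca
Both strands were searched, and the match lies 54 to 46 bases before the start. TGACNNNGC was present in 13.3% of 35116 promoters of this length. Within the same letters lies TGAGTCA, the element bound by AP-1, which was present in 4.95% of these promoters. ACGTG and GCGTG, cores of the hypoxia response element, had 0 matches in this window and were present in 21.4% and 36.5% of promoters. A match is a run of letters and does not show binding.

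Of the protein-coding genes within 500 kb of LUCAT1, ARRDC3 rose in hypoxia and ADGRV1 did not pass the test, so 1 of 2 was called in edgeR's quasi-likelihood test, where 72.8% of all 17396 genes were called (36.5% higher and 36.3% lower). ARRDC3, an arrestin-related adaptor that brings membrane receptors to ubiquitin ligases, lies 54177 bases upstream of LUCAT1 on the same strand. Its level in CPM (counts scaled to library size with TMM factors) was 226.4, 213.0 and 238.8 in hypoxia and 36.9, 36.7 and 38.1 in normoxia, a log2 change of 2.60 ± 0.05 (SE) and 6.07-fold (edgeR adjusted p = 3.11e-11). The groups were far apart. ADGRV1, a large adhesion receptor, lies on the opposite strand and overlaps the far end of LUCAT1, with 0 exon bases in common. It had 1.45, 2.46 and 1.90 CPM in hypoxia and 1.59, 1.15 and 1.38 CPM in normoxia, which overlap. Its log2 change was 0.50 ± 0.24 (SE, edgeR adjusted p = 0.0855), and it passed when hypoxia C4 was left out, with a log2 change of 0.67.

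In the same window 3 lncRNA neighbours were tested, of which 2 rose, beside 42.5% of the 3032 lncRNA genes tested. ENSG00000234292 and ENSG00000251093 lie within LUCAT1 on its strand and share 0 exon bases with it. ENSG00000234292 rose, with 5.89, 4.55 and 4.04 CPM in hypoxia and 0.906, 0.599 and 0.815 CPM in normoxia, a log2 change of 2.64 ± 0.22 (SE, edgeR adjusted p = 1.21e-06). ENSG00000251093 rose on very few reads, with 10, 12 and 14 counts in hypoxia and 0, 2 and 4 in normoxia (log2 change 2.71 ± 0.68 SE, edgeR adjusted p = 0.00427). Reads from unspliced LUCAT1 RNA and reads from these transcripts cannot be told apart in a table of counts. ARRDC3-AS1, antisense to ARRDC3, had 0.551, 1.14 and 1.05 CPM in hypoxia and 1.47, 1.39 and 0.780 CPM in normoxia and did not pass (log2 change -0.40 ± 0.34 SE, edgeR adjusted p = 0.302).

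**Figure D4:**
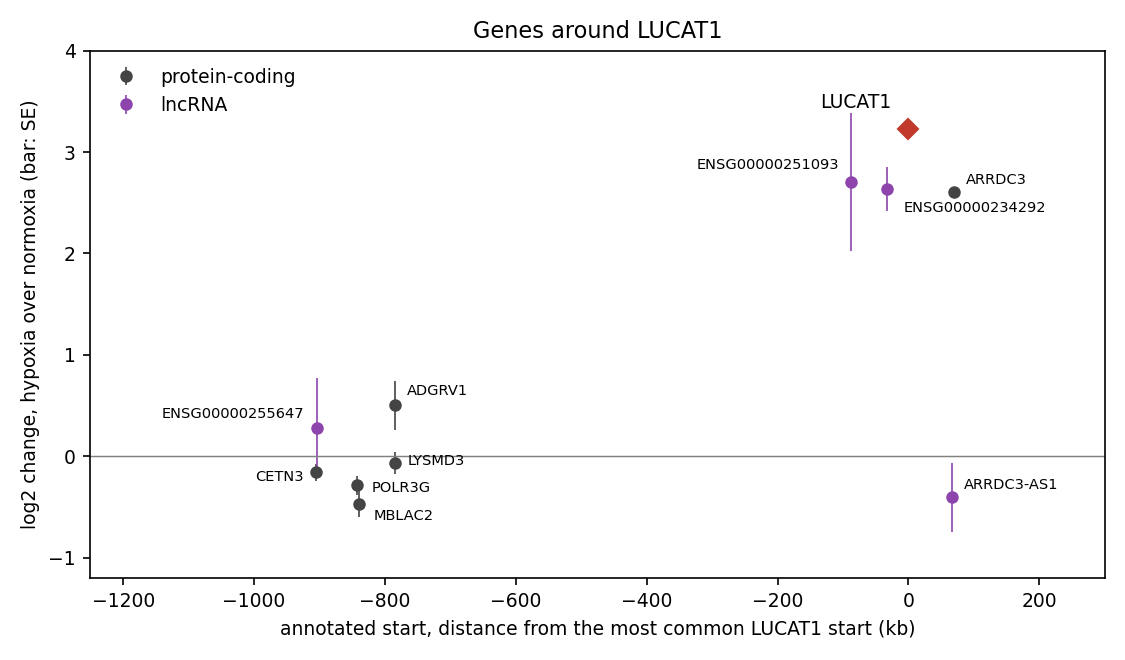
Log2 change, hypoxia over normoxia, with SE bars, of the tested protein-coding and lncRNA genes within 1000 kb of LUCAT1, placed by the distance (kb) of their annotated start from the most common LUCAT1 start. ARRDC3 and the 2 lncRNAs inside LUCAT1 lie at 2.60 to 2.71, and the other genes lie between -0.47 and 0.50.

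Genes known as targets of HIF, the hypoxia-inducible transcription factors, all rose where tested: 23 of 23, with 1 of the 24 listed below the filter, beside 36.5% of all genes tested that rose. The list serves as a check of the hypoxia label and, like the other lists, was chosen with earlier results of these data known. The median log2 change of the tested HIF targets was 3.02, beside 0.02 over all genes tested, and that of LUCAT1 was 3.23. NDRG1, a stress-response gene, stood at 7634 ± 203 CPM in hypoxia and 378.7 ± 6.98 CPM in normoxia (SD, n = 3), with a log2 change of 4.33 ± 0.04 (SE). PGK1, a glycolytic kinase, had a log2 change of 1.99 ± 0.04, and BHLHE40, a transcriptional repressor, 3.09 ± 0.05. Of the factor's own subunits, EPAS1 rose by a log2 change of 0.91 ± 0.04 and ARNT by 0.49 ± 0.04. HIF1A passed at 0.19 ± 0.06 (edgeR adjusted p = 0.0115), a call that was lost without normoxia C1 (log2 change 0.13) and with library totals as the scaling (0.04).

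Most genes known as targets of NRF2 were lower in hypoxia. Of 30 listed genes 27 were tested: 18 fell and 6 rose, while 3 missed the threshold, beside 36.3% of all genes tested that fell and 36.5% that rose. The median log2 change was -0.79. TXNRD1, thioredoxin reductase, stood at 319.8, 315.6 and 337.5 CPM in hypoxia and 602.0, 627.7 and 647.0 CPM in normoxia, a log2 change of -0.95 ± 0.04 (SE, edgeR adjusted p = 1.07e-08). TKT, transketolase of the pentose phosphate pathway, had a log2 change of -0.85 ± 0.05, and PRDX1, a peroxiredoxin, -0.51 ± 0.04. The risen members with the highest levels were SQSTM1, an autophagy receptor (0.97 ± 0.04), ABCC3 (0.94 ± 0.04) and ABCC1 (0.69 ± 0.04), both drug and conjugate exporters.

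The genes that set NRF2 activity did not all move the same way. NFE2L2 had 55.2, 50.2 and 57.1 CPM in hypoxia and 57.5, 64.7 and 71.2 CPM in normoxia, a log2 change of -0.25 ± 0.08 (SE, edgeR adjusted p = 0.0135). That call was lost without hypoxia C5 (log2 change -0.20) and without normoxia C3 (-0.18). KEAP1 rose by 0.31 ± 0.05 and CUL3 fell by 0.55 on the log2 scale. BACH1, a repressor that competes with NRF2 for the same element, rose to 271.6, 260.0 and 279.2 CPM in hypoxia, against 80.1, 84.4 and 87.3 CPM in normoxia, a log2 change of 1.69 ± 0.05 (SE, edgeR adjusted p = 2.95e-10). Of the small MAF proteins, which pair with both, MAFK rose by 2.19 ± 0.04 and MAFF by 1.89 ± 0.05. MAFG had 61.7, 62.2 and 55.1 CPM in hypoxia and 61.6, 63.7 and 59.9 CPM in normoxia and did not pass, with a log2 change of -0.05 ± 0.06. NR4A2, a nuclear receptor, did not pass either, with a log2 change of -0.04 ± 0.08 (edgeR adjusted p = 0.658). Of the 13 genes on this list of regulators and partners, which also holds EPAS1, ARNT, HIF1A and IRF9, 8 rose, 3 fell and 2 did not pass. Of all genes tested 72.8% were called, and 36.5% rose.

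Most interferon-stimulated genes were also lower. Of 29 listed genes 28 were tested: 19 fell and 7 rose, while 2 missed the threshold, again beside 36.3% of all genes that fell and 36.5% that rose. The median log2 change was -0.69. IFIT2 had 41.4, 39.2 and 26.5 CPM in hypoxia and 210.1, 215.5 and 227.6 CPM in normoxia, a log2 change of -2.61 ± 0.13 (SE, edgeR adjusted p = 1.94e-08). Its relative IFIT3, an antiviral protein of the same family, had a log2 change of -1.86 ± 0.04, and BST2, which tethers budding virions, -0.57 ± 0.04. The risen members with the highest levels were ISG20, an exonuclease (0.79 ± 0.04), IFI6 (0.67 ± 0.06) and IFITM1, a membrane protein that blocks virus entry (0.27 ± 0.05). IRF9, a subunit of the factor that drives these genes, rose, with 36.1, 34.8 and 32.8 CPM in hypoxia and 17.2, 14.8 and 11.9 CPM in normoxia (log2 change 1.24 ± 0.11 SE).

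**Figure D5:**
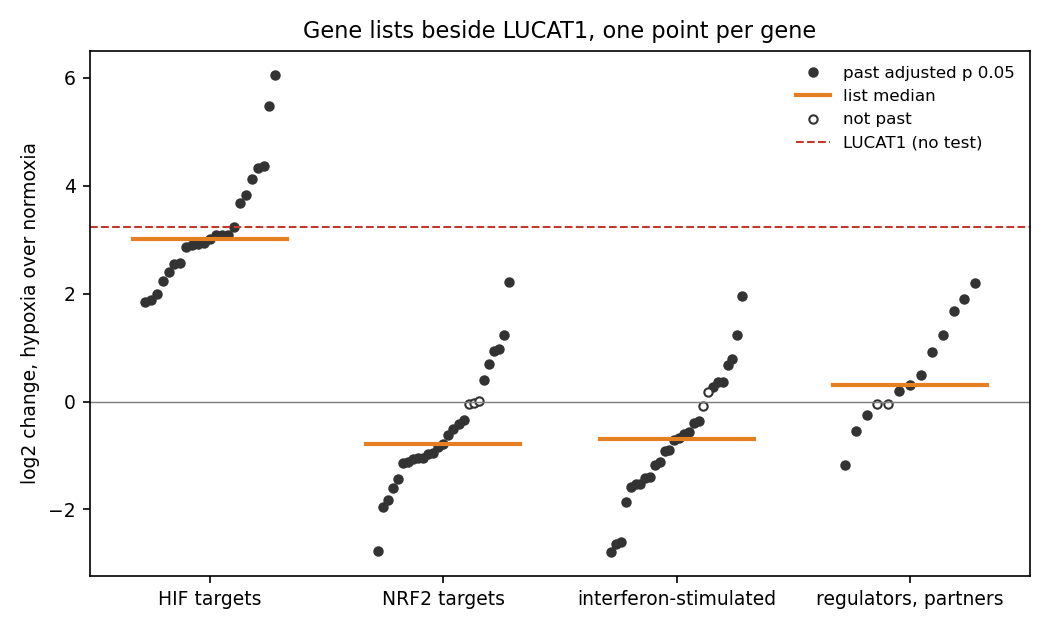
Log2 change, hypoxia over normoxia, of each tested gene in 4 lists, with filled points past adjusted p of 0.05 in edgeR, open points not past it, an orange bar at the list median and a dashed line at LUCAT1 (3.23, not tested). The medians were 3.02 for HIF targets, -0.79 for NRF2 targets, -0.69 for interferon-stimulated genes and 0.31 for regulators and partners.

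Among 9697 genes with a mean of 10 CPM or more, the gene whose profile over the 6 libraries lay nearest that of LUCAT1 was HK2, hexokinase 2. The measure was the Euclidean distance between log2(CPM + 0.5) profiles centred on their means, and it was 0.0477 for HK2. HK2 stood at 1467, 1464 and 1465 CPM in hypoxia and 150.5, 156.9 and 159.4 CPM in normoxia. PPP1R3E, a glycogen-targeting phosphatase subunit (0.0680), GLRX, a glutaredoxin (0.109), APOLD1, an endothelial early-response gene (0.139), and FSCN2, an actin-bundling protein (0.164), followed. Since the profile is dominated by the difference between the groups, these are genes with nearly the same log2 change, from 3.20 to 3.32.

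The label of the cells was checked against marker lists. Of 14 hepatocyte markers, 11 were under 1 CPM in every library, and AFP, APOA1, APOH, TTR and GPC3 had 0 counts. A count of 0 allows up to 3 counts per library, which is 0.0842 to 0.0898 CPM in hypoxia and 0.0750 to 0.0765 CPM in normoxia, for counting error only. The list summed to 21.4 to 22.7 CPM in hypoxia and 9.41 to 11.1 CPM in normoxia, mostly from TF, the gene of an iron carrier. Per length TF was low, with means of 12.1 CPM but 0.550 FPKM in hypoxia and 8.23 CPM but 0.437 FPKM in normoxia. Its counts thus lay mostly in long transcript rows, and whether these encode the carrier was not examined. HNF4A and SERPINA1 on this list rose, to mean levels of 7.01 and 1.83 CPM in hypoxia from 1.30 and 0.067 CPM in normoxia. Of 8 myeloid markers, PTPRC and TYROBP had 0 counts and 5 were under 1 CPM in every library. The myeloid list summed to 48.1 to 57.0 CPM in hypoxia and 7.23 to 7.25 CPM in normoxia, mostly from CD68, a lysosomal protein. CSF1R, also on that list, rose to a mean of 4.84 CPM in hypoxia from 0.375 CPM in normoxia. The part of these genes in the LUCAT1 values was not tested. The 3 airway markers were all under 1 CPM, with SCGB1A1 at 0. The libraries thus lacked most defining hepatocyte transcripts, so the marker check did not bear out the label. The identity of the cells was not tested further, and LUCAT1 levels here are those of the cells labelled Huh7.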

How the data were processed

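RNA-seq of 3 hypoxia and 3 normoxia libraries was analysed from a single table. The submitters' processing notes name GRCh38 with cutadapt, HISAT2 and RSEM. No version or annotation release is given in the sources used here. Expected counts per transcript were deposited by the authors and were the values tested. The table's other 6 columns of per-library values (FPKM deposited by the authors) were not used, and FPKM was recomputed from expected counts, deposited lengths and library totals. Column names gave each library's group but no replicate number of the labels. Library totals were 37621426 to 40794783 expected counts, of which 6.12% to 6.39% lay in 48155 rows with no gene in GENCODE release 29. These rows were left out of the gene fit and its library sizes. They were kept in the transcript fit and in the totals used for FPKM and for fractions of the library.

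Gene sums were rounded to whole numbers, filtered (filterByExpr), scaled by TMM and tested two-sided with edgeR 4.0.16 (quasi-likelihood, R 4.3.3), with Benjamini-Hochberg adjustment over 17396 genes at 0.05. Transcript rows were fitted likewise for description. The fit was tested on simulated data. No pair of libraries was a duplicate: chi-square over its degrees of freedom was 4.60 to 11.0 within groups. DESeq2 1.42.0, limma 3.58.1 on log2(FPKM + 0.5), library totals, no filter and leaving out each library were the alternatives.

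LUCAT1 and the gene lists were chosen with earlier results of these data known. Named genes were the tested neighbours within 500 kb, all regulators and partners, the 3 risen and 3 fallen members of each other list with the highest mean CPM, and the 5 profiles nearest LUCAT1. Marker genes, and the protein-coding neighbours called within 1000 kb, were named besides. Some items that this rule or the sequence search gave are not reported here. End groups, junctions, 31-base stretches and TGAGTCA were added after the annotation and sequence were seen. Strand use in counting is not given, so reads of overlapping genes may be divided between them.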

Additional observations from a re-analysis of the deposited data

How the results depend on the processing

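The log2 change of LUCAT1 was 3.08 with library totals and 3.07 with limma on log2(FPKM + 0.5), beside 3.23; leaving out each library gave 3.20 to 3.25. Library totals moved the median of all genes to -0.13. The number of protein-coding neighbours called was 1, with 2 when hypoxia C4 was left out (1 to 2 over the libraries left out) and 3 within 1000 kb. The calls added by the wider window, POLR3G and MBLAC2, were falls, with log2 changes of -0.29 and -0.47. Of all genes tested 72.8% were called. The share of the first start group became 99.9% in hypoxia and 99.7% in normoxia when starts within 1000 bases were joined. Without a library, NR4A2 ranged between log2 changes of -0.11 (without hypoxia C4) and 0.034 (without hypoxia C5), and MAFG between -0.079 (without normoxia C3) and 0.0099 (without hypoxia C6). MAFG passed with library totals (-0.20) and limma (-0.22), NR4A2 with limma (-0.19), and ARRDC3-AS1 with limma (-0.54). The cause of these differences was not tested. The counts of genes called, over all genes and in the 4 lists, stayed within 1.5 times under the alternatives run. Weighting isoforms by the deposited FPKM was not run, since those columns were not used.

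Isoform rows with no sequence of their own rest on RSEM's division of shared reads, and rows of few counts have wide errors. No paired analysis was possible because the table's columns carry no replicate number of the labels.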
